A study of Mus musculus with 6 samples.

Results

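The troponin complex is the calcium switch of striated muscle, and its 8 isoform genes were followed here in the ventricles of mouse embryos in which the genes of 2 nuclear receptors were or were not targeted in the heart. The members were the genes Tnni1, Tnni2, Tnni3, Tnnt1, Tnnt2, Tnnt3, Tnnc1 and Tnnc2, chosen by name. They held 33 of the 30031 transcripts and 8 of the 19245 gene symbols of the deposited table. The KO group came from C57BL/6 embryos at embryonic day 17.5 that carried floxed alleles of Esrra and Esrrg together with Cre recombinase under the Nkx2-5 promoter, which is active in heart progenitors. The WT group came from embryos of the same strain and age that carried the floxed alleles but no Cre, so the floxed alleles are common to both groups. RNA came from both ventricles, with 3 libraries in each group and 2 hearts pooled in each library.

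Esrra and Esrrg encode ERRα and ERRγ, the alpha and gamma forms of the estrogen-related receptors, nuclear receptors best known for control of mitochondrial and fatty acid genes. Troponin has a calcium-binding subunit (troponin C), an inhibitory subunit that holds the filament off without calcium (troponin I) and a subunit that anchors the complex to tropomyosin (troponin T). The heart of a mouse embryo makes troponin I from Tnni1, the slow skeletal isoform gene, and from Tnni3, the cardiac isoform gene. Tnni3 takes over from Tnni1 around and after birth, and so the ratio of Tnni3 to Tnni1 is used as a readout of maturation. Tnnt2 and Tnnc1 are the main heart genes of the other subunits, whereas Tnni2, Tnnt3 and Tnnc2 belong to fast skeletal muscle and Tnnt1 to slow skeletal muscle.

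The targeted genes were measured first, because they check the labels. Esrra stood at 41.0, 44.0 and 43.7 CPM (counts relative to the library total, scaled between libraries by the TMM method) in the labelled KO libraries, against 82.0, 68.9 and 76.4 CPM in the WT libraries. Esrrg stood at 110, 117 and 120 CPM in the labelled KO libraries and at 81.9, 79.5 and 83.7 CPM in the WT libraries, so its RNA went against the label. The counts span whole transcripts and do not measure the floxed exons, and the group is therefore called labelled KO throughout. Gene totals ran from 12807221 to 32663838 estimated counts, labelled KO replicate 1 being the deepest library. That library also stood apart in sex: relative to the unscaled total, its Y-linked genes summed to 323.9 CPM with Xist at 0.9491 CPM, WT replicates 1 and 3 had Xist at 2352 and 2372 CPM with hardly any Y-linked RNA, and the other 3 libraries held both. Fold changes of the troponin genes are given with and without those libraries. Ratios, shares and transcripts were recomputed only with single libraries left out, not without all of those libraries. Of the ventricular markers, the light chain Myl2 stood at 2901 ± 298 CPM in labelled KO and 5582 ± 130 CPM in WT libraries, and of the atrial markers Myl7 stood at 654 ± 39.8 CPM in labelled KO and 184 ± 24.3 CPM in WT libraries and Nppa at 1706 ± 312 CPM in labelled KO and 279 ± 22.4 CPM in WT libraries (SD, n = 3 each). The ventricular gene Myl2 was thus present in both groups, and the labelled KO libraries held less of it and more of these atrial genes. The lists were not uniform by the test described below. Of the 5 ventricular markers 4 fell and 1, Mpped2, rose, and of the 9 atrial markers 5 rose and 4 did not pass.

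The 4 troponin genes that the fetal heart uses, Tnni3, Tnni1, Tnnt2 and Tnnc1, all fell in the labelled KO ventricles, Tnni3 by far the most. Of the 8 genes, 7 had enough counts to be tested and Tnnc2 did not. By edgeR's quasi-likelihood test with an adjusted p under 0.05, 4 fell, 2 (Tnni2 and Tnnt3) rose and 1 (Tnnt1) did not pass. Over all 14290 genes tested, 22.0% fell and 22.4% rose, so that a call by itself is common in these libraries. The groups did not overlap for 5 of the 7 tested members, beside 53.7% of all tested genes. The median log2 fold change of all genes was 0.01.

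**Figure D1:**
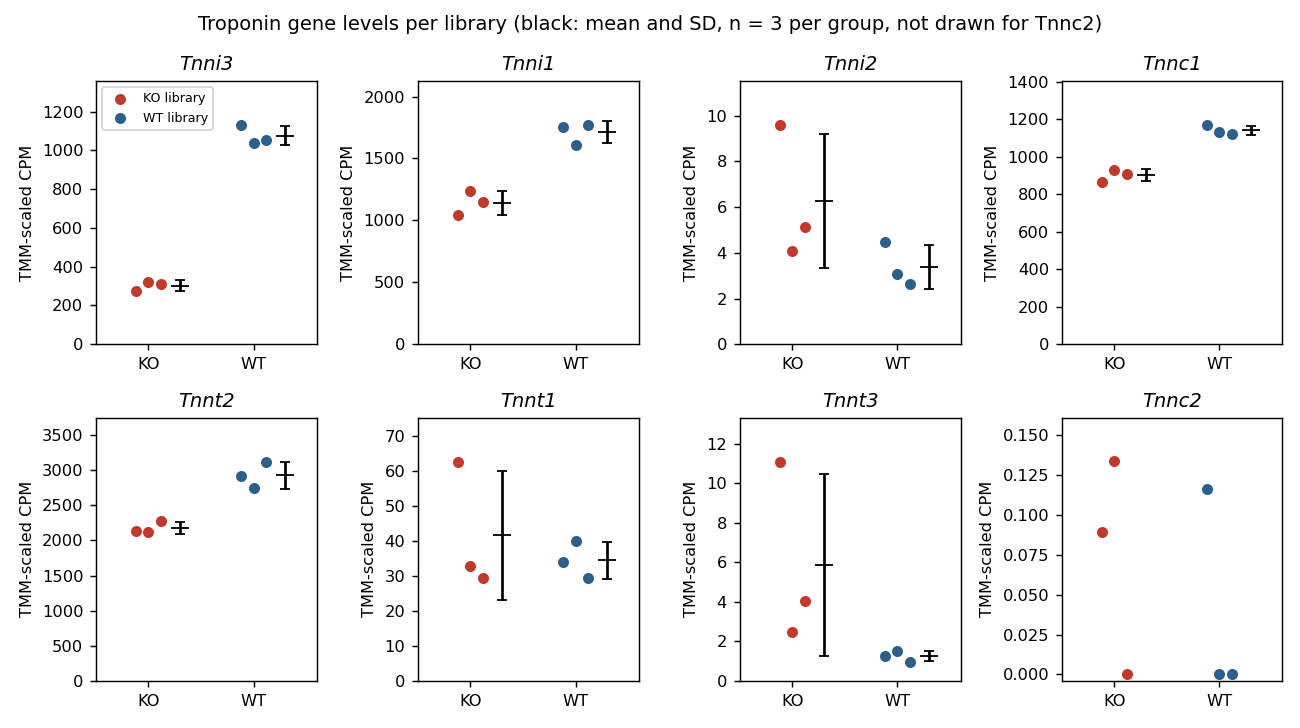
TMM-scaled CPM (vertical axes, linear, each panel on its own scale) of the 8 troponin genes in the 3 labelled KO libraries (red) and the 3 WT libraries (blue), with mean and SD in black except for Tnnc2. Tnni3 lies at 273 to 323 CPM in labelled KO against 1039 to 1131 CPM in WT libraries, while Tnni2, Tnnt1 and Tnnt3 each have 1 labelled KO library, replicate 1, far above the other 2.

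The upstream sequences of the 4 genes that fell are shown because these genes moved in the same direction and because the targeted receptors bind DNA at a known element. Each run holds the 250 bases before the first transcribed base on the gene's strand, 5′ to 3′, from the RefSeq promoter table of build GRCm38.p6. For Tnni1 the run ends before the first of its 2 starts, that of the minor transcript NM_021467, while the main transcript NM_001112702 starts downstream of it, at 135799511. Capitals mark every match, on either strand, to the motifs searched.
Tnni3 (chr7:4522529-4522778, minus strand): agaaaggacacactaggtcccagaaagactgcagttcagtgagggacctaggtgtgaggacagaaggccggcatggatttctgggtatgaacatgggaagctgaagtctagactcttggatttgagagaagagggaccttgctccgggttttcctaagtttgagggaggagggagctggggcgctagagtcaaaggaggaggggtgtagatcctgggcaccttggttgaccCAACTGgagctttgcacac
Tnni1 (chr1:135799171-135799420, plus strand): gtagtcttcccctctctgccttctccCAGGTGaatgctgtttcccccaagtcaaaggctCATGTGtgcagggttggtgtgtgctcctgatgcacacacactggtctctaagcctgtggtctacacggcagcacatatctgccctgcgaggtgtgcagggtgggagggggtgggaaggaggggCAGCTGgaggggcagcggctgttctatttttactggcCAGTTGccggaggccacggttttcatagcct
Tnnt2 (chr1:135836084-135836333, plus strand): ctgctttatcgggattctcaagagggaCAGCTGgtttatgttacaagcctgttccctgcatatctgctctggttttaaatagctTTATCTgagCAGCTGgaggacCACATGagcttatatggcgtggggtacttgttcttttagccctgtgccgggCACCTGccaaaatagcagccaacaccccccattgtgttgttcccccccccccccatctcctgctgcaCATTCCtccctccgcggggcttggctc
Tnnc1 (chr14:31208062-31208311, plus strand): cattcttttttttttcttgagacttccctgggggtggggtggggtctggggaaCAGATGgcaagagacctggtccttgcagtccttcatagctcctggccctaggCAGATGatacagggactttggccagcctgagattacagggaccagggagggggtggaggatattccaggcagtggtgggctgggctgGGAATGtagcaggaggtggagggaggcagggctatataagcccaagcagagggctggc
The element of the estrogen-related receptors, TNAAGGTCA, was in none of the 6 troponin genes' windows in the table, and 1.14% of all 32851 windows held it. The shorter AGGTCA, which lies inside that element, was likewise in none of the 6 genes and in 14% of all windows. Neither result bears on binding, since only these letters in these windows were searched. CATTCC, the site of TEAD factors known as MCAT, was found in Tnnt2 at position -27 and in Tnnc1 at -58 on the opposite strand, counting -1 as the base before the first transcribed one, and 12.6% of all windows held it. AGATAA, the motif of GATA factors, was in Tnnt2 at -166 on the opposite strand and in 9.99% of all windows. The E-box CANNTG, which is short and degenerate, was in all 6 genes and in 66.2% of all windows, and the single match in Tnni3 starts at -19. TATAAA was found in the window of Tnnt1 and in 12.4% of all windows. The MEF2 site was in 2.92% of all windows, the CArG box of SRF in 1.47%, and neither in a troponin gene.

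Tnni3, the cardiac inhibitory subunit and the one with an extra N-terminal stretch phosphorylated by protein kinase A, lies on chromosome 7 from 4518305 to 4522528 in mm10, on the minus strand. Its level was 273, 323 and 312 CPM in the labelled KO libraries, against 1131, 1039 and 1055 CPM in the WT libraries. The labelled KO libraries all lay far under every WT library. The mean fell to 303 ± 26.1 CPM in labelled KO, against 1075 ± 48.9 CPM in WT libraries (SD, n = 3 each), a log2 fold change of -1.83 (SE 0.063, edgeR adjusted p = 2.38e-10) or 3.55-fold lower. Tnni3 was the gene at place 89 when all tested genes were ordered from the lowest log2 fold change, and 3.21% of tested genes were called lower by 2-fold or more.

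Tnni1, the slow skeletal inhibitory subunit of the early heart, which lacks the stretch phosphorylated by protein kinase A, lies on chromosome 1 from 135799421 to 135810989 on the plus strand. Its level was 1045, 1237 and 1147 CPM in the labelled KO libraries, against 1753, 1609 and 1771 CPM in the WT libraries. The groups did not overlap, and the isoform gene of the earlier heart was thus lower as well. The log2 fold change was -0.58 (SE 0.0628, edgeR adjusted p = 8.11e-06), 1.5-fold lower. Both Tnni1 transcripts fell, NM_001112702 by a log2 fold change of -0.59 (SE 0.0737, edgeR adjusted p = 0.00147) and NM_021467 by -0.61 (SE 0.0486, edgeR adjusted p = 0.000186).

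The ratio of Tnni3 to Tnni1 was taken on the RPKM scale, where reads are divided by transcript length and by the reads of the library, which allows genes of different length to be compared. It was 0.299, 0.299 and 0.311 in the labelled KO libraries, against 0.738, 0.739 and 0.681 in the WT libraries. The labelled KO values lay within a narrow band well under the lowest WT value. The mean ratio was 0.303 ± 0.00682 in labelled KO and 0.719 ± 0.0329 in WT libraries (SD, n = 3 each), 2.37-fold lower, a difference of -1.25 on the log2 scale. The two-sided exact permutation test gave p = 0.1, the smallest that 3 libraries against 3 allow, and 0.13 after Benjamini-Hochberg adjustment over the 13 ratios computed. With any 1 library left out the log2 difference lay between -1.28 and -1.23. Read depth, sex and exonic share of the library cancel in a ratio only as far as they act alike on both genes, which was not tested.

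As shares of all troponin I RNA on the RPKM scale, Tnni3 made up 22.8%, 22.9% and 23.6% in the labelled KO libraries, against 42.4%, 42.4% and 40.5% in the WT libraries. Tnni1 made up 76.1%, 76.7% and 75.9% in the labelled KO libraries, against 57.4%, 57.4% and 59.4% in the WT libraries. Slow skeletal troponin I was thus the larger part in every library and took a larger part in the labelled KO ventricles, although its own level fell. The share of Tnni1 differed by 18.2 percentage points and that of Tnni3 by -18.6 points, each with an exact permutation p = 0.1 and 0.2 after adjustment over 8 shares, n = 3 each.

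**Figure D2:**
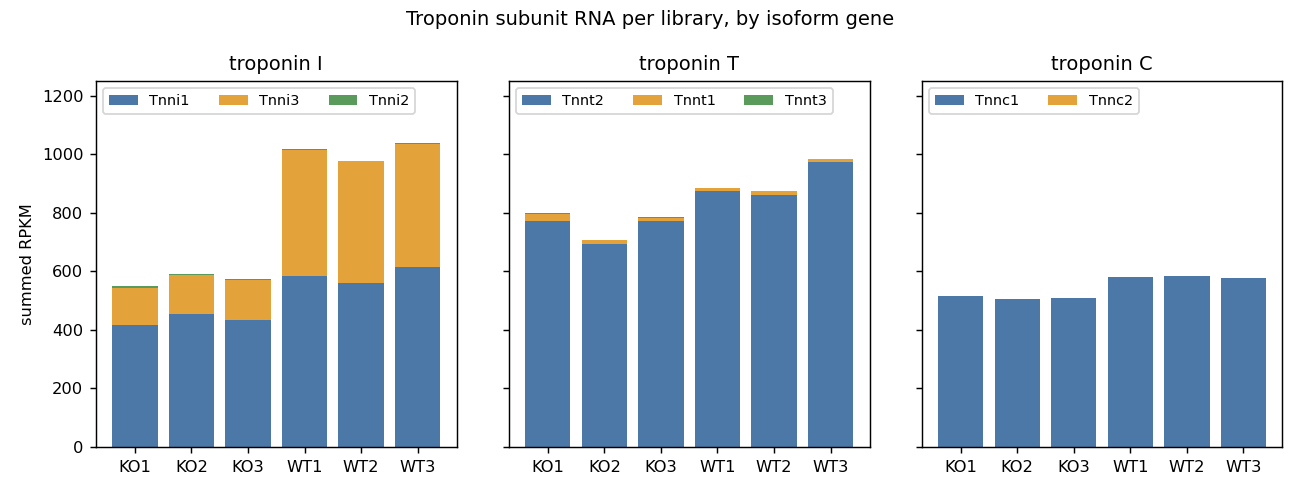
Summed RPKM (vertical axis, linear from 0) of the isoform genes of troponin I, T and C, stacked, in each labelled KO and WT library. Troponin I totals are 549 to 590 RPKM in labelled KO against 977 to 1037 RPKM in WT libraries, troponin T is nearly all Tnnt2, and troponin C is Tnnc1.

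Tnnt2, the cardiac troponin T that ties the complex to tropomyosin, lies on chromosome 1 from 135836334 to 135852268 on the plus strand. It stood at 2138, 2114 and 2276 CPM in the labelled KO libraries, against 2911, 2741 and 3121 CPM in the WT libraries. No labelled KO library reached the lowest WT library. The log2 fold change was -0.43 (SE 0.0554, edgeR adjusted p = 4.2e-05), 1.34-fold lower. Tnnc1, which encodes the troponin C of heart and slow muscle, lies on chromosome 14 from 31208312 to 31211711 on the plus strand. It stood at 866, 929 and 906 CPM in the labelled KO libraries, against 1170, 1130 and 1121 CPM in the WT libraries, again without overlap. Its log2 fold change was -0.34 (SE 0.0455, edgeR adjusted p = 5.28e-05), 1.27-fold lower. Without the 3 libraries of 1 sex, which leaves 2 labelled KO libraries and 1 WT library, the log2 fold changes of the heart genes were -1.71 for Tnni3, -0.43 for Tnni1, -0.32 for Tnnt2 and -0.30 for Tnnc1, and all 4 stayed called.

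Compared per length, the order of the 8 genes was nearly the same in both groups. In labelled KO libraries the RPKM levels ran from Tnnt2 (693 to 772) to Tnnc1 (505 to 514), Tnni1 (418 to 453) and Tnni3 (125 to 135). In WT libraries they ran from Tnnt2 (861 to 972) to Tnni1 (561 to 616), Tnnc1 (578 to 585) and Tnni3 (415 to 431), and the ranges of Tnni1 and Tnnc1 overlapped there. The skeletal genes came far below, in the order Tnnt1, Tnni2, Tnnt3 and Tnnc2 in both groups. Tnnt1 spanned 11.3 to 25.5 RPKM in labelled KO and 10.4 to 14.2 RPKM in WT libraries. Tnni2 spanned 2.34 to 6.01 RPKM and Tnnt3 0.904 to 4.35 RPKM in labelled KO libraries, so these neighbours overlapped, whereas in WT libraries they spanned 1.42 to 2.33 and 0.326 to 0.515 RPKM.

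The proportions of the subunits were then set side by side, as a description chosen after the values had been seen. Troponin I RNA per troponin C RNA, on summed RPKM, was 1.07, 1.17 and 1.12 in the labelled KO libraries, against 1.76, 1.67 and 1.79 in the WT libraries. Troponin T per troponin C was 1.56, 1.4 and 1.54 in the labelled KO libraries and 1.53, 1.5 and 1.7 in the WT libraries, which overlap. The 3 subunits therefore did not keep the same RNA proportions, troponin I being lower per troponin C in every labelled KO library. The fully exonic share of reads was 37.6% to 40.6% in labelled KO and 35.5% to 37.1% in WT libraries, and RPKM of this table is scaled to all reads used, so that RPKM levels across libraries carry that difference.

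Tnnt2 is known to change its exon choice as the heart develops, and its RNA was deposited as 9 transcripts. The exons of each were not analysed here, so the shares of these transcripts are not shares of embryonic and adult splice forms. Transcript NM_001130176 was estimated at 48.9%, 40.7% and 40.9% of Tnnt2 RNA (summed RPKM) in the labelled KO libraries, against 46.7%, 46.4% and 39.0% in the WT libraries. NM_011619 was estimated at 23.1%, 30.6% and 30.4% in the labelled KO libraries, against 27.9%, 27.1% and 32.4% in the WT libraries. These 2 leading forms overlapped between the groups, and where 1 was high in a library the other was low. NM_001130177 followed with 8.90% to 11.2% in labelled KO and 9.77% to 10.5% in WT libraries. By the deposited positions, 8 of the 9 transcripts begin at 135836334, and NM_001130176 begins 4527 bases downstream, at 135840861.

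The 6 minor Tnnt2 forms were each under 5% of the gene's RNA, and 3 of them had groups that did not overlap. Beside this, the levels of 53.7% of all tested genes did not overlap, and no such figure was computed for transcript shares. NM_001130178 was at 3.43%, 4% and 3.58% in the labelled KO libraries, against 3.14%, 3.03% and 3.40% in the WT libraries. NM_001130180 was at 1.04%, 1.33% and 1.29% in the labelled KO libraries, against 1.51%, 1.42% and 1.37% in the WT libraries. NM_001130181 was at 1.01%, 1.40% and 1.32% in the labelled KO libraries, against 1.46%, 1.51% and 1.48% in the WT libraries. These shifts were under 1 percentage point, and the exact permutation p was 0.1 for each and 0.3 after adjustment over the 9 shares (n = 3 each). The value of 0.1 is the smallest that this test can give, so no share could have passed a threshold of 0.05, and the test says nothing on whether the shares differ.

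**Figure D3:**
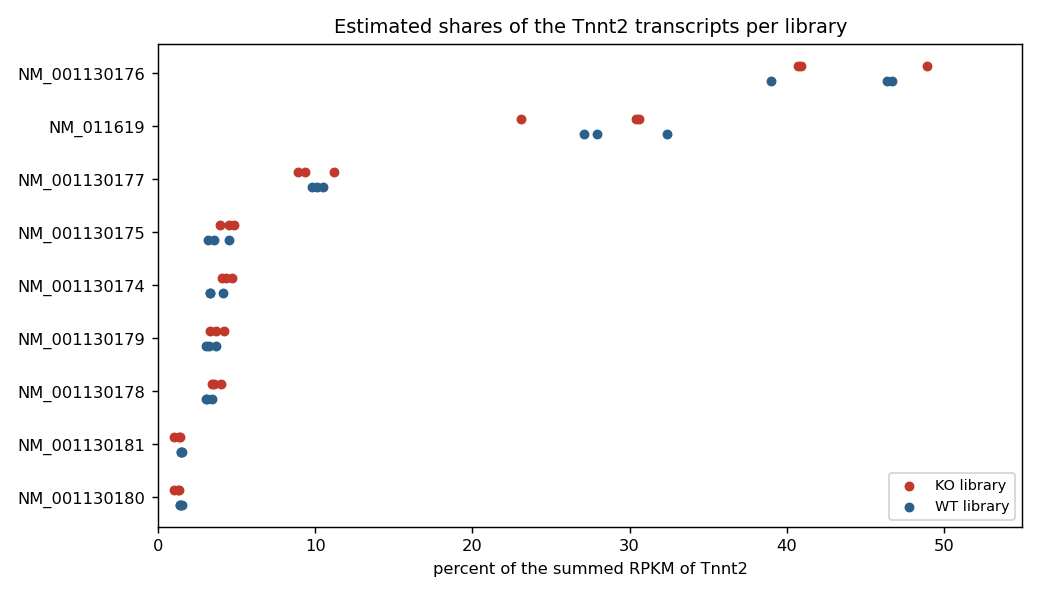
Estimated share of Tnnt2 RNA (percent of the gene's summed RPKM, horizontal axis) for each of the 9 deposited transcripts, with labelled KO libraries in red above WT libraries in blue. The 2 leading transcripts, at 40.7% to 48.9% and 23.1% to 30.6% in labelled KO libraries, overlap with WT libraries at 39.0% to 46.7% and 27.1% to 32.4%.

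Tested as levels, 18 of the 33 troponin transcripts had enough counts, 8 fell and 0 rose, and the edgeR test left 10 uncalled, beside 11.8% of all tested transcripts that fell and 11.0% that rose. Among the Tnnt2 transcripts 4 fell: NM_001130176 (log2 fold change -0.45, edgeR adjusted p = 0.00639), NM_001130177 (-0.47, 0.00806), NM_001130180 (-0.67, 0.00496) and NM_001130181 (-0.70, 0.00818). NM_011619 had -0.49 and an edgeR adjusted p = 0.054, just outside the threshold, and the other 4 lay between -0.27 and -0.15. All 9 Tnnt2 estimates thus pointed down. The authors' software split reads that fit several transcripts by estimation, and the test does not carry that uncertainty.

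RNA of the partners of troponin in the filaments was listed next. Of 16 thin filament partners, all tested, 4 rose, 3 fell and 9 did not pass, and their median change was 0.11 on the log2 scale. These counts are near the background of 22.4% of all genes higher and 22.0% lower. Cardiac alpha-actin, Actc1, was at 9272 ± 502 CPM in labelled KO and 9025 ± 316 CPM in WT libraries (log2 fold change 0.04, edgeR adjusted p = 0.58), and alpha-tropomyosin, Tpm1, had -0.10 (0.174). Skeletal alpha-actin, Acta1, rose by 0.97 (edgeR adjusted p = 4.17e-07), and Neb, the ruler protein nebulin of skeletal thin filaments, by 0.99 (2.83e-05). The pointed-end cap Tmod1 fell, with -0.31 (4.92e-05). Of 11 thick filament partners 6 fell and 4 rose, among them Mybpc3, the cardiac myosin-binding protein C, with -0.59 (SE 0.0487, edgeR adjusted p = 6.56e-07) and Myl7, the atrial light chain, with 1.83 (SE 0.0786, 1.48e-09). Cardiac actin and alpha-tropomyosin, the filament on which the complex sits, thus did not pass the test that Tnni3, Tnni1, Tnnt2 and Tnnc1 passed, and the difference between them was not tested.

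Other isoform pairs with an adult-type and an embryonic-type or other-chamber partner were computed in the same way, 13 in all with Tnni3 to Tnni1. The groups did not overlap in 10 of them, lower in labelled KO in 8 and higher in 2. In level, the groups did not overlap for 53.7% of all tested genes, so separation is common here. No such share was computed for ratios. The ventricular to atrial light chain ratio, Myl2 to Myl7, was 3.31, 4.41 and 4.21 in the labelled KO libraries, against 29.7, 23.3 and 29.1 in the WT libraries. The ratio of Cox7a1, the heart and muscle form of a cytochrome oxidase subunit, to Cox7a2, the widely used form, was 0.261, 0.324 and 0.293 in the labelled KO libraries, against 0.719, 0.616 and 0.712 in the WT libraries. On the log2 scale the differences were -2.78 for Myl2 to Myl7, -1.67 for Actc1 to Acta2, -1.36 for Cox6a2 to Cox6a1, -1.25 for Tnni3 to Tnni1 and -1.22 for Cox7a1 to Cox7a2. The groups overlapped for 3 pairs, with differences of 0.09 for Myh6 to Myh7, -0.06 for Cox8b to Cox8a, a further heart to general pair of cytochrome oxidase, and 0.02 for Ckm to Ckb, the muscle to brain pair of creatine kinase. The myosin heavy chain pair, Myh6 to Myh7, was at 0.175, 0.151 and 0.126 in labelled KO libraries against 0.154, 0.146 and 0.124 in WT libraries. Eno3 to Eno1 and Pgam2 to Pgam1, muscle to general forms of glycolytic enzymes, went the other way, each with a difference of 0.32. Each ratio without overlap had an exact permutation p = 0.1, and 0.13 after adjustment over 13, n = 3 each.

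**Figure D4:**
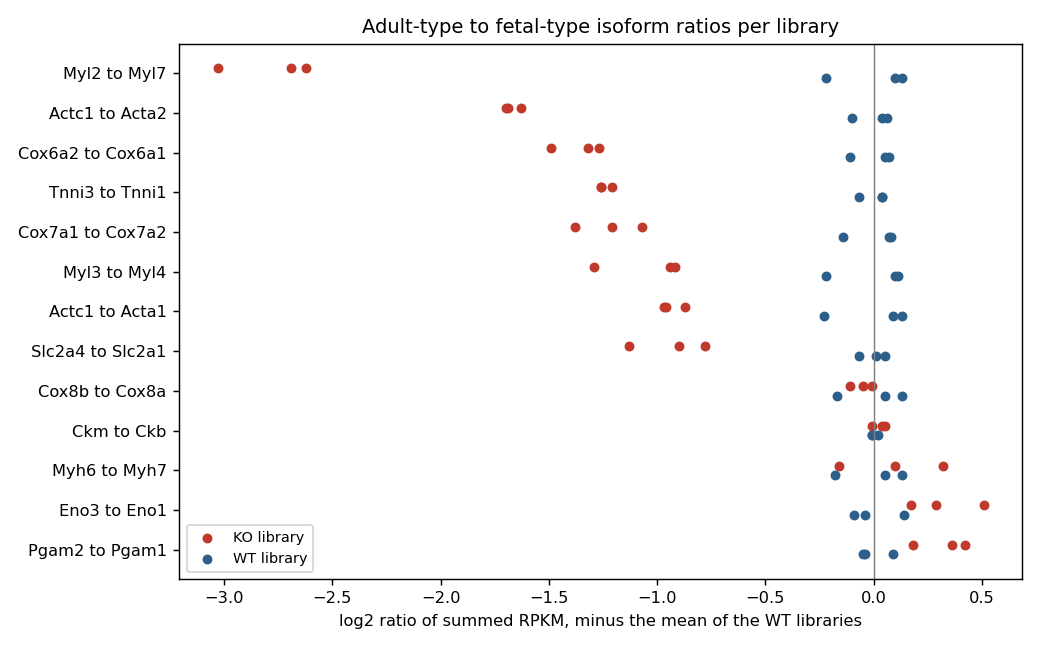
The log2 ratio of summed RPKM for 13 isoform pairs (horizontal axis), minus the mean of the WT libraries, with labelled KO libraries in red above WT libraries in blue. Tnni3 to Tnni1 lies -1.25 from the WT mean on average, in the upper group of 8 pairs that do not overlap, and Myh6 to Myh7 overlaps.

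Tnnt3, the fast skeletal troponin T, was low everywhere and rose in the labelled KO ventricles. It lies on chromosome 7 from 142498836 to 142516009 on the plus strand. It stood at 11.1, 2.48 and 4.05 CPM in the labelled KO libraries, against 1.28, 1.49 and 0.967 CPM in the WT libraries. The groups did not overlap, but labelled KO replicate 1 was far above the other 2. The log2 fold change was 2.39 (SE 0.513, edgeR adjusted p = 0.00211), and without labelled KO replicate 1 it was 1.45 with an edgeR adjusted p = 0.000883. Under robust dispersion the edgeR adjusted p was 0.0844, outside the threshold, as it was with the Y-linked level as a covariate (1.30, 0.301) and without the 3 libraries of 1 sex (1.16, 0.0604). Prr33 overlaps Tnnt3 on the other strand, and since it is not given whether the authors counted by strand, their reads cannot be told apart. Prr33 itself was at a mean of 0.284 CPM in labelled KO and 0.532 CPM in WT libraries and was not tested. Of the 15 Tnnt3 transcripts only NM_001163664 had enough counts, with a log2 fold change of 2.64 (SE 0.862, edgeR adjusted p = 0.0684).

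Tnni2, the fast skeletal troponin I, lies on chromosome 7 from 142442468 to 142444405 on the plus strand. It had 322, 61 and 101 estimated counts in the labelled KO libraries, against 77, 39 and 46 in the WT libraries, or 9.60, 4.09 and 5.12 CPM against 4.46, 3.07 and 2.62 CPM. The groups overlapped. It rose by a log2 fold change of 0.97 (SE 0.298, edgeR adjusted p = 0.0185), and without labelled KO replicate 1 the value was 0.45 and the adjusted p 0.116. The call was also lost without WT replicate 2 (0.90, edgeR adjusted p = 0.0585), without WT replicate 3 (0.79, 0.0885) and in 4 further settings. It thus depended on single libraries and on the method, being lost with all libraries kept under robust dispersion (edgeR adjusted p = 0.124).

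Tnnt1, the slow skeletal troponin T, lies on chromosome 7 from 4504570 to 4515975 on the minus strand, 2329 bases from Tnni3. It stood at 62.6, 32.7 and 29.3 CPM in the labelled KO libraries, against 34, 39.8 and 29.4 CPM in the WT libraries. Labelled KO replicate 1 was again the high one and the rest overlapped. The log2 fold change was 0.32 (SE 0.228, edgeR adjusted p = 0.277), and without labelled KO replicate 1 it was -0.14 (0.312). Leaving out the 3 libraries of 1 sex left 2 labelled KO libraries and 1 WT library and turned the value to -0.37, with an edgeR adjusted p = 0.0172. The 3 Tnnt1 transcripts did not pass, with log2 fold changes of -0.29, -0.14 and 0.42. Tnnc2, the troponin C of fast muscle on chromosome 2 from 164777162 to 164779734, had 3, 2 and 0 estimated counts in the labelled KO libraries, against 2, 0 and 0 in the WT libraries, all at or under the 3 counts that a count of 0 allows, which stand for 0.0918 to 0.234 CPM.

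Other skeletal muscle genes were higher too. Of 22 skeletal muscle markers, 20 were in the table used, 11 had enough counts, and of these 8 rose and 0 fell. Their median log2 fold change was 1.10. With the Y-linked level as a covariate 4 rose. Over all genes tested in the main fit, 22.4% rose and 22.0% fell. Since genes that pass the count filter only through a high group must differ, these counts are a description only. Myl1, a light chain of fast skeletal muscle, rose by 2.02 (SE 0.0533, edgeR adjusted p = 6.85e-11), to 127 ± 6.54 CPM in labelled KO, against 31.2 ± 0.684 CPM in WT libraries (SD, n = 3 each). Embryonic myosin, Myh3, rose by 1.36 (SE 0.202, edgeR adjusted p = 0.000131), Mybpc1, the slow myosin-binding protein C, by 1.07 (0.000106) and perinatal myosin, Myh8, by 0.93 (0.000223). Myog, the myogenic factor of skeletal muscle, had 21, 14 and 21 estimated counts in the labelled KO libraries, against 6, 2 and 2 in the WT libraries. Of the adult fast myosins, Myh1 stood at 2.18, 1.21 and 1.27 CPM in the labelled KO libraries, against 0.29, 0.157 and 0.796 CPM in the WT libraries, while Myh2 and Myh4, like the factors Myf5 and Myf6, were at or near 0 in every library. Labelled KO replicate 1 was the highest labelled KO library for 4 of the 11 tested markers (Myh1, Myh3, Myh8 and Chrna1) and not for the other 7. The summed level of the marker list was 249, 256 and 282 CPM in the labelled KO libraries, against 122, 152 and 132 CPM in the WT libraries. Most of that sum was Myl1 and Casq1, and Casq1 did not pass (log2 fold change 0.22, edgeR adjusted p = 0.142). The part that other skeletal muscle genes have in the results for Tnni2, Tnnt1 and Tnnt3 was not tested.

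**Figure D5:**
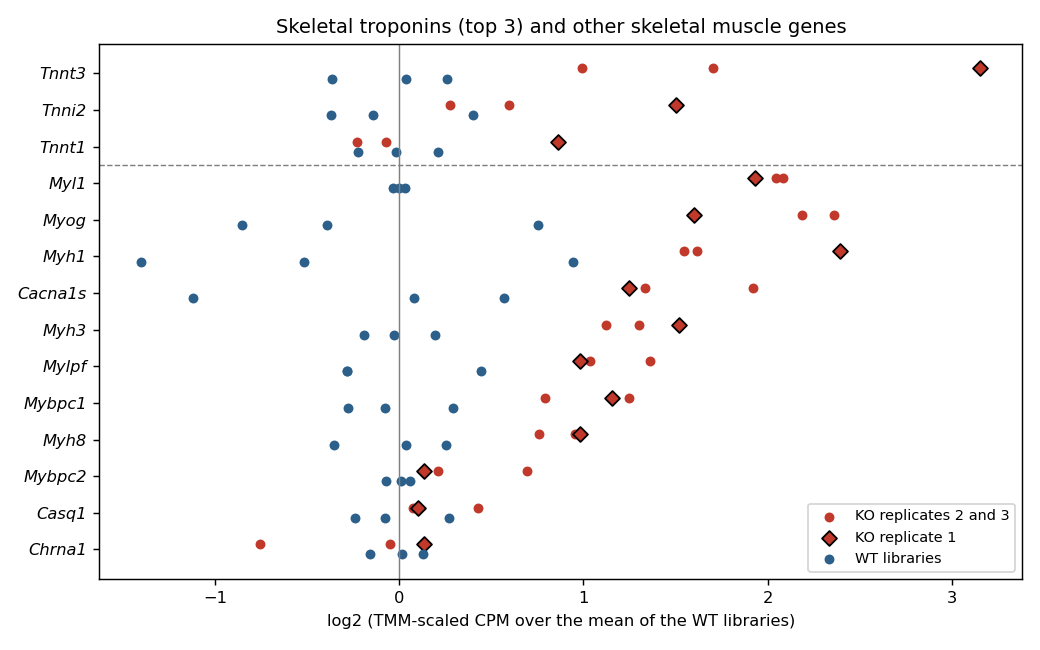
Log2 of TMM-scaled CPM over the mean of the WT libraries (horizontal axis) for Tnnt3, Tnni2 and Tnnt1 and, under the dashed line, 11 other skeletal muscle genes, with labelled KO libraries in red, replicate 1 as a diamond, and WT libraries in blue. Replicate 1 is the highest labelled KO library for all 3 troponins and for 4 of the 11 other genes, Myh1, Myh3, Myh8 and Chrna1, and not for the other 7.

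Markers of other cells moved beside the heart troponins. In bulk ventricles, fewer cells of a type and less RNA per cell cannot be told apart. The counts per list are to be read against the 22.4% of all tested genes that rose and the 22.0% that fell. Of 8 cardiomyocyte markers other than troponins 6 fell and 0 rose, while Actn2 and Actc1 did not pass. The summed level of all 8 was 92334 to 102354 CPM in labelled KO and 112451 to 115249 CPM in WT libraries. Most of that sum was titin, Ttn, at 74501 to 83404 CPM in labelled KO and 91782 to 93174 CPM in WT libraries. Of 7 fibroblast markers 7 rose, with sums of 7251 to 8420 CPM in labelled KO and 5163 to 5457 CPM in WT libraries. Of 6 smooth muscle markers 3 rose and 1 fell, among them Acta2 with a rise of 1.71 (edgeR adjusted p = 7.38e-11), while the defining myosin Myh11 had 0.02 (0.904). Of 5 ventricular markers 4 fell and 1 rose, with sums of 4033 to 4802 CPM in labelled KO and 7904 to 8366 CPM in WT libraries. Of 9 atrial markers 5 rose and 0 fell, with sums of 2816 to 3419 CPM in labelled KO and 1008 to 1097 CPM in WT libraries. Endothelial markers summed to 888 to 932 CPM in labelled KO and 985 to 1037 CPM in WT libraries, with 2 of 7 higher and 4 lower, and macrophage markers to 55.1 to 61.1 CPM and 43.3 to 51.6 CPM, with 2 of 6 higher and 1 lower. Their part in the troponin results was not tested.

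The genes known to act on troponin were examined as 3 lists, whose counts are to be read against the 22.4% of all tested genes that rose and the 22.0% that fell. Of 15 kinases, regulatory subunits and phosphatases that act on troponin I, 5 rose, 4 fell and 6 did not pass, with a median of 0.05. Prkaca, a catalytic subunit of protein kinase A, fell to 145 ± 8.36 CPM in labelled KO, against 261 ± 6.7 CPM in WT libraries (log2 fold change -0.85, SE 0.0456, edgeR adjusted p = 1.16e-08). Prkar1a, the regulatory subunit that restrains the same kinase, rose to 722 ± 46.5 CPM in labelled KO, against 305 ± 27.1 CPM in WT libraries (1.24, SE 0.0651, edgeR adjusted p = 9.46e-09). Tnni3k, the cardiac kinase named for its contact with Tnni3, fell by 0.45 on the log2 scale (edgeR adjusted p = 3.75e-06). A kinase known to phosphorylate Tnni3 and Tnni3 itself were thus both lower in RNA, and protein and phosphorylation were not measured.

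Of 11 factors known to splice troponin T or other heart transcripts 4 rose, 2 fell and 5 did not pass, with a median of 0.01. Celf2, which binds Tnnt2 RNA, rose by 0.35 (edgeR adjusted p = 3.33e-05) and Rbfox1 by 0.49 (0.00125). Rbm20, the splicing factor of titin, fell by 0.32 on the log2 scale (edgeR adjusted p = 0.000304), and the muscleblind genes Mbnl1 and Mbnl2 had -0.08 and 0.01. Of 14 transcription factors known at troponin and other heart genes 3 rose, 5 fell and 6 did not pass, with a median of -0.02. Tead1, a factor of the MCAT site printed for Tnnt2 and Tnnc1, rose by 0.41 (SE 0.0404, edgeR adjusted p = 3.83e-06), Nkx2-5 fell by 0.37 on the log2 scale (0.000446), and Srf and Gata4 had 0.04 and -0.07. Only the labelled KO group carried Cre under the Nkx2-5 promoter, and the part of Cre in the Nkx2-5 value was not tested.

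The troponin genes lie in pairs of a troponin I and a troponin T gene, and each pair was looked at with its neighbours. Tnni3 and Tnnt1 are 2329 bases apart on chromosome 7, Tnni1 and Tnnt2 25344 bases apart on chromosome 1, and Tnni2 and Tnnt3 54430 bases apart on chromosome 7. In the first pair Tnni3 fell and Tnnt1 did not pass, in the second both fell, and in the third both rose in the main fit. The 2 rises were not stable. Tnni2 had overlapping groups and lost its call without labelled KO replicate 1 (0.45, edgeR adjusted p = 0.116). Tnnt3 lost its call under robust dispersion (2.39, edgeR adjusted p = 0.0844). Of the 34 tested genes among 41 within 100 kb of a member, 8 rose and 10 fell, close to the 22.4% of all tested genes that rose and the 22.0% that fell, and the median of their log2 fold changes was -0.01. Dnaaf3, a dynein assembly gene 428 bases from Tnni3, had 0.17 (edgeR adjusted p = 0.738), and Lad1, between Tnni1 and Tnnt2, rose by 0.52 (0.0245). The nearest neighbours of Tnni3 on either side, Tnnt1 and Dnaaf3, thus did not pass the test that Tnni3 passed. Dnaaf3 was low, at 0.402 to 1.06 CPM in labelled KO and 0.472 to 0.811 CPM in WT libraries (SE 0.355), so a modest change could not be seen. The value of Tnnt1 turned to -0.14 without labelled KO replicate 1 and to -0.37 without the 3 libraries of 1 sex, the direction of Tnni3. Its result in the main fit therefore does not show that Tnnt1 stayed level. Whether the fall is confined to Tnni3 at this place was not tested.

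The genes whose pattern was most like that of Tnni3 were found over the 6 libraries as the smallest Euclidean distance between centred log2 CPM values, among the 12277 genes that averaged 50 counts or more. They were Eci1 (distance 0.141), an enzyme of unsaturated fatty acid breakdown, Eef1a2 (0.149), the elongation factor form of muscle and neurons, Psmb10 (0.154), an immunoproteasome subunit, Sod2 (0.169), the mitochondrial superoxide dismutase, and Ppara (0.183), a nuclear receptor of fatty acid genes. Eci1 stood at 31.2 ± 1.76 CPM in labelled KO and 104 ± 2.13 CPM in WT libraries, and Sod2 at 101 ± 8.38 CPM in labelled KO and 336 ± 4.42 CPM in WT libraries (SD, n = 3 each). Their log2 fold changes lay between -1.81 and -1.73, beside -1.83 for Tnni3. They were picked by that likeness, and their fall is not a separate result.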

How the data were processed

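Total RNA of both ventricles was sequenced in 3 KO and 3 WT libraries, grouped by the sample labels. Libraries were stranded and made after removal of ribosomal RNA, per the labels' protocols, which name a second kit as well. The submitters' processing notes list mm10 with DESeq, Partek 6.6 and TopHat2 2.0. What each tool did, and whether counting used strand, is not given in the sources used here.

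The deposited table holds an estimated count per transcript and library, of which 51% to 53.2% are not whole, and RPKM values that the authors scaled by transcript length and by all reads used. Recomputed RPKM matched within 0.1% for 100% of values above 0.01. A deposited summary gives each library's read counts and the percentages of reads (%) in exons, introns and between genes, as the authors' software assigned them. The authors' own fold changes were not used, and 0 value columns were left unmapped.

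Counts were summed over the transcripts of each symbol and rounded. Within a tolerance of 0.01, 94.5% of the unrounded sums were whole. The symbols of 58 transcripts that a spreadsheet had turned into dates were restored from their accessions. Genes were filtered with filterByExpr (at least 10 counts, total at least 15), scaled by TMM and tested two-sided with the quasi-likelihood test of edgeR 4.0.16 under R 4.3.3. P-values were adjusted by Benjamini-Hochberg over 14290 genes, or 21591 transcripts, with a threshold of 0.05. Ratios and shares were compared by exact permutation in SciPy 1.17.1. The code of the edgeR fit was tested on simulated counts. In each library 3 counts, the limit that a count of 0 allows, stand for 0.0918 to 0.234 CPM, and cover counting error only. Replicates differ beyond sampling noise, their chi-square statistics being 2.71 to 9.44 times the degrees of freedom. The labels do not say that the pools of a group came from separate litters, so p-values measure the spread between these libraries.

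The members and lists were chosen with earlier results of these data known. The text names Esrra, Esrrg, the members, their tested neighbours within 100 kb, the genes of the isoform pairs and the 5 most like Tnni3. Per list it names up to 4 changed genes of the majority direction and 2 of the other by adjusted p. Fewer were named where space required. Actc1, Tpm1, Myh11, Mbnl1, Mbnl2, Srf, Gata4, Prr33, Myog, Myh1, Chrna1, Ttn, Actn2 and Casq1, and the list genes at or near 0, were named after their values were seen. The alternatives were RLE and upper-quartile scaling, no count filter, robust dispersion, DESeq2 1.42.0, limma-voom (limma 3.58.1), a replicate block, a Y-linked covariate, leaving out the libraries of 1 sex, and leaving out each library.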

Additional observations from a re-analysis of the deposited data

How the results depend on the processing

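Tnni3, Tnni1, Tnnt2 and Tnnc1 stayed lower and called under all 15 alternatives each. The difference in the log2 ratio of Tnni3 to Tnni1 stayed between -1.28 and -1.23 under its 9 alternatives. These did not include the Y-linked covariate or leaving out all libraries of 1 sex. Tnni2 lost its call with robust dispersion (0.97), the Y-linked covariate (0.84), the 3 libraries of 1 sex left out (0.60) and DESeq2 (0.89), and ranged from 0.45 to 1.23 with 1 library left out. Tnnt3 lost its call with robust dispersion (2.39), the Y-linked covariate (1.30) and the libraries of 1 sex left out (1.16), and ranged from 1.45 to 2.69 with 1 library left out. Tnnt1 turned to -0.10 with the covariate and to -0.37 without the libraries of 1 sex, and ranged from -0.14 to 0.52 with 1 library left out. The genes changed numbered 6348, against 3404 with the covariate, 3645 without the libraries of 1 sex, and 5319 to 6112 with 1 library left out. Counts per list that moved by over 1.5 times with the covariate were thin filament partners (2 higher and 1 lower, against 4 and 3), thick filament partners (2 higher, against 4), skeletal muscle markers (4 higher, against 8), atrial markers (3 higher, against 5), troponin T splicing factors (2 higher, against 4), transcription factors (2 lower, against 5), kinases and phosphatases (3 higher, against 5), endothelial markers (1 higher and 2 lower, against 2 and 4) and macrophage markers (1 higher and 0 lower, against 2 and 1). Without the libraries of 1 sex, the counts were 1 lower for thin filament partners, 2 higher for thick filament partners, 3 higher and 1 lower for atrial markers, 3 higher for kinases and phosphatases, and as with the covariate for endothelial and macrophage markers. With 1 library left out, 5 transcription factors (against 3) were higher without KO replicate 2, 2 splicing factors (against 4) were higher without WT replicate 2, and 1 atrial marker (against 0) was lower without KO replicate 1. RLE and upper-quartile scaling moved the median of all genes by -0.00323 and 0.00453.

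With 1 library left out, these values changed sign. The log2 ratio difference ranged from -0.03 to 0.21 for Myh6 to Myh7 (-0.00 without WT replicate 3) and from -0.15 to 0.00 for Cox8b to Cox8a. The difference in the share of Tnnt2, in percentage points, ranged from -0.981 to 0.17 for NM_001130177, from -2.41 to 1.36 for NM_011619 and from -3.24 to 0.888 for NM_001130176. The log2 fold change ranged from -0.25 to 0.02 for NM_001130174, from -0.31 to 0.01 for NM_001130175, from -0.64 to 0.07 for NM_001277903, from -0.48 to 0.08 for NM_001277904 and from -0.04 to 0.64 for NM_011618. The cause was not tested.

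The labels do not say that samples of the same number are paired. Correlations of their deviations were -0.00552, -0.0152 and 0.104, beside -0.115 to 0.103 for samples of different numbers. So few values cannot exclude a shared litter or batch. With the number as a replicate block the ratio difference was -1.25 (exact sign-flip p = 0.25, the smallest possible for 3 pairs), the members' calls were the same, the troponin transcripts called were 9 against 8, and the genes changed were 6410. Levels near 3 counts, as for Tnnc2, were not detectable at this depth.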
